A study of Mus musculus with 6 samples.

Results

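Haemoglobin and erythroid transcripts were followed as a measure of red blood cell RNA in subcutaneous pancreatic tumours of mice given folinic acid (FA) or phosphate-buffered saline (PBS). The members were 6 genes chosen by symbol from the 55357 genes of the table, namely the alpha-globin genes Hba-a1 and Hba-a2, the beta-globin genes Hbb-bs and Hbb-bt, Alas2 and Slc4a1, and each symbol had 1 row. The tumours grew under the skin of C57BL/6J mice from 250000 injected cells of KPC1242, a single mouse pancreatic ductal adenocarcinoma line. The FA group received 2 mg of FA, a reduced form of folate, by mouth once a day on days 8 to 12. The PBS group received PBS on the same days, and every tumour was collected on day 14. There were 3 FA and 3 PBS tumours with 1 total RNA library each, and the labels do not state whether each came from its own mouse, so the spread between tumours may be partly technical. The sample codes share 1 beginning within FA and another within PBS, and what this marks cannot be told apart from treatment.

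Haemoglobin carries oxygen in red blood cells as a tetramer of alpha and beta chains around heme. Mature red cells of mammals have no nucleus, and reticulocytes, the youngest circulating red cells, still hold RNA that is mostly globin messenger. In RNA from a solid tissue, adult globin transcripts are therefore commonly read as a sign of blood in the sample, although some non-erythroid cells can also express globin genes at a low level. Alas2 encodes the erythroid enzyme of the first step of heme synthesis, and Slc4a1 encodes band 3, the anion exchanger of the red cell membrane. In whole-tumour RNA, fewer cells of a type and less RNA per cell cannot be told apart. The libraries were made with a stranded total RNA kit, some versions of which remove globin as well as ribosomal RNA, and the labels do not give the version used.

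The bases before the start sites of members whose levels moved together are shown because erythroid genes share short promoter motifs. They were read from RefSeq (GRCm38.p6), where 5 of the 6 members matched, over the 250 bases before each start. Capitals mark matches on either strand to GATAAG, a form of the motif bound by GATA factors, to CCAAT, to CACCC, the core of the motif bound by KLF1, and to TATAA. Hba-a1 lies at chr11:32283422-32283671 on the plus strand, Hbb-bs at chr7:103827929-103828178 and Hbb-bt at chr7:103813924-103814173 on the minus strand, and Alas2 at chrX:150547167-150547416 on the plus strand.
Hba-a1: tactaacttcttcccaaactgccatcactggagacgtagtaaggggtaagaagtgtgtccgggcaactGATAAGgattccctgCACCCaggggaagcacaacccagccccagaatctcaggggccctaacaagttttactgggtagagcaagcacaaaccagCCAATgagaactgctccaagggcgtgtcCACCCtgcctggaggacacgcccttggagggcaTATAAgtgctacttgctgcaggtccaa
Hbb-bs: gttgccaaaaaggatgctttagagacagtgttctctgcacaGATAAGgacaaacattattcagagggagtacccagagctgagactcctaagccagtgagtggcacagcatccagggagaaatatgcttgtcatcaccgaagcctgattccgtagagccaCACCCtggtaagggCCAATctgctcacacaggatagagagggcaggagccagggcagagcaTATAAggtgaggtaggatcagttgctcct
Hbb-bt: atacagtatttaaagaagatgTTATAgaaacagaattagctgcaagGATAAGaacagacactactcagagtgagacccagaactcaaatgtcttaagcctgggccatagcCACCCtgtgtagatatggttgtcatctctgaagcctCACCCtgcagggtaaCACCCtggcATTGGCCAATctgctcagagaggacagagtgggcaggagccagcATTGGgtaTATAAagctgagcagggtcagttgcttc
Alas2: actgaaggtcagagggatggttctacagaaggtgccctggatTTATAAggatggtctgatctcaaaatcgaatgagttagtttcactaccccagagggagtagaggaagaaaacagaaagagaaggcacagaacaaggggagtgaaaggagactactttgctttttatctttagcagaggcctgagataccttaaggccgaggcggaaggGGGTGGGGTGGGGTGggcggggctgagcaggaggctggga

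All 4 motifs were present in each adult globin window, and GATAAG and CCAAT were not in the Alas2 window. Other forms of the GATA motif were not searched for. The Alas2 window shown does hold AGATAA on the opposite strand, printed as ttatct, so it is not without a GATA sequence. In the globin windows GATAAG began 182 bases before the start of Hba-a1, 209 before Hbb-bs and 204 before Hbb-bt, and TATAA began 27, 29 and 28 bases before these starts. A match of CCAAT on each strand lay side by side in Hbb-bt with no shared base. In Alas2 TATAA began 207 bases before the start, far from its place in the globin windows, and overlapped its own reverse complement. Of 32851 promoter windows of this length, 6.55% held GATAAG, 33.8% CCAAT, 52.0% CACCC, 22.8% TATAA and 0.289% all of them. The Hba-a2 window (chr11:32296242-32296491, plus strand) equalled that of Hba-a1 at all 247 aligned bases, whereas Hbb-bs and Hbb-bt shared 71.7% of 244 aligned bases.

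The paired copies are nearly the same gene, which bears on how their reads are divided. In GENCODE M21 transcripts Hba-a1 and Hba-a2 differed at 1 of 426 coding bases, and Hbb-bs and Hbb-bt at 1 of 441. Of all 50-base windows of the Hba-a1 transcript, 67.5% also occurred in Hba-a2, and 65.8% of those of Hbb-bs occurred in Hbb-bt. No such window was shared between Hba-a1 and Hbb-bs. The split within each pair is therefore uncertain, and the sum of a pair is the firmer value.

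Levels are given as TPM, a transcript abundance per unit of length scaled to the same total in every library. FA replicate 3 stood apart across genes in general, and PBS replicate 3 stood apart in residual ribosomal RNA, whose values are given beside the globin totals. The correlation of FA replicate 3 with the other tumours was 0.949 to 0.968 across genes, which are not independent replicates, against 0.981 to 0.987 among the other 5, PBS replicate 3 included. Skeletal muscle genes, 10 of 10 highest in FA replicate 3, summed to 1383 TPM there, against 13.3 and 156 TPM in the other FA tumours and 15.3 to 197 TPM in PBS tumours. The labelled ductal tumour cells were evident in every library, with a summed level of 8 epithelial genes from 5356 to 5851 TPM in FA and from 4872 to 5621 TPM in PBS tumours. The number of reads is unknown because TPM keeps no depth, and 23858 to 25669 genes were above 0 in a tumour.

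Beta globin Hbb-bs (ENSMUSG00000052305) was the highest member in every tumour. Hbb-bs stood at 118, 78.3 and 138 TPM in FA replicates 1, 2 and 3, against 36.5, 47.8 and 277 TPM in PBS replicates 1, 2 and 3. The 3 FA tumours thus lay above PBS replicates 1 and 2 and below PBS replicate 3. The means were 111 ± 30.2 TPM over FA tumours and 121 ± 136 TPM over PBS tumours (SD, n = 3 each). On the log2(TPM + 1) scale, where 1 tumour weighs less, FA minus PBS was 0.45 ± 0.73 (SE), with a 95% interval from -1.29 to 2.20, and limma across all tested genes gave an unadjusted p of 0.555 and an adjusted p of 1.0.

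Hbb-bt (ENSMUSG00000073940), the lower of the paired beta-globin genes, stood at 14.9, 10.45 and 18.3 TPM in FA replicates 1, 2 and 3. It was at 4.38, 6.50 and 36.5 TPM in PBS replicates 1, 2 and 3. The tumours took the same order as for Hbb-bs, and the groups overlapped through PBS replicate 3 alone. The log2 difference was 0.40 ± 0.70 (adjusted p = 1.0, limma).

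Of the alpha-globin genes, Hba-a2 (ENSMUSG00000069917) was the higher, at 78.2, 67.9 and 119 TPM in FA replicates 1, 2 and 3 and at 28.7, 38.2 and 209 TPM in PBS replicates 1, 2 and 3. Hba-a1 (ENSMUSG00000069919) was at 46.7, 32.6 and 64.6 TPM in the FA tumours, against 11.7, 22.4 and 109 TPM in the PBS tumours, in the same order of replicates. Both genes again put PBS replicate 3 first and PBS replicates 1 and 2 last. The log2 differences were 0.48 ± 0.71 for Hba-a2 and 0.56 ± 0.75 for Hba-a1, both with an adjusted p of 1.0 by limma. The 95% interval of the Hba-a1 difference ran from -1.24 to 2.36.

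Alas2 (ENSMUSG00000025270), the erythroid heme enzyme gene, was near the floor of the table's filter, at 1.16, 0.73 and 1.20 TPM in FA replicates 1, 2 and 3 and at 0.48, 0.59 and 2.74 TPM in PBS replicates 1, 2 and 3. It ordered the tumours as the globins did. Its log2 difference was -0.03 ± 0.37 (adjusted p = 1.0, limma). The pseudocount of 1 TPM makes this value smaller than a ratio of TPM would be, and with a pseudocount of 0.1 the sign turned, to 0.09. Slc4a1 (ENSMUSG00000006574) was listed at 0.01 TPM in FA replicates 1 and 2 and at 0 in FA replicate 3, against 0 in PBS replicate 1 and 0.01 TPM in PBS replicates 2 and 3. It was therefore not tested, and the table's step of 0.01 TPM does not resolve it further.

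**Figure D1:**
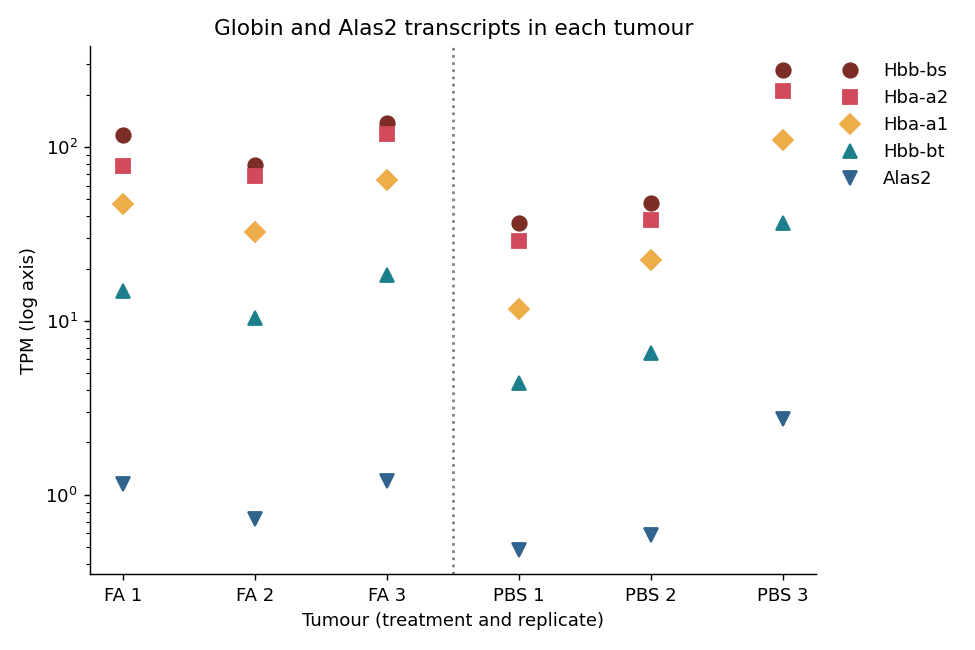
TPM (log axis) of the adult globin genes and Alas2 in each tumour, with FA tumours on the left and PBS tumours on the right; each point is 1 library. Hbb-bs ranges from 78.3 to 138 TPM in FA tumours and from 36.5 to 277 TPM in PBS tumours, and all 5 genes put PBS replicate 3 highest and PBS replicate 1 lowest.

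Of the 6 members, 5 passed the filter of a mean of 1 TPM, and 0 of these were called in either direction. Alas2 passed it only through its 2.74 TPM in PBS replicate 3, so its place among the 5 depends on that tumour. Over all 15023 tested genes, 0.0% were called higher and 0.0% lower in FA tumours. None of the 5 had an unadjusted p under 0.05, which 1.28% of all tested genes had, and none separated the groups without overlap, which 4.69% of all genes did. All 5 gave the 6 tumours 1 common order, in which PBS replicate 1 was lowest, followed by PBS replicate 2, FA replicates 2, 1 and 3, and PBS replicate 3. That order was found in 9 of all tested genes (0.0599%), and the other 4 were the ribosomal RNA genes mt-Rnr2 and 5_8S_rRNA and the gene models Gm24119 and Gm13204. The copies of a globin pair share much of their sequence, so their common order does not come from independent values. For Alas2 the order rests on small steps, with 1.16 and 1.20 TPM in FA replicates 1 and 3. Every FA tumour exceeded PBS replicates 1 and 2 for 4.23% of tested genes, and did so with PBS replicate 3 highest for 0.479%.

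Summed over the adult globin genes, the level was 258, 189 and 340 TPM in FA replicates 1, 2 and 3. In PBS replicates 1, 2 and 3 it was 81.3, 115 and 632 TPM. The highest tumour thus held 7.77 times the globin of the lowest, and both were PBS tumours. The ratio of the means, FA over PBS, was 0.95, the ratio of the medians was 2.24, and the ratio of the means was 2.67 without PBS replicate 3 and 1.08 without FA replicate 2. The direction of the difference in total globin therefore depends on which tumours are included and on the summary used, and no test was made on this sum. Globin was a small part of the RNA, at most 0.034% of all TPM in an FA tumour and 0.0632% in PBS replicate 3.

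The adult globins varied more among PBS tumours than nearly all other genes did. The SD of log2(TPM + 1) among PBS tumours was between 1.499 and 1.61 for the adult globin genes, larger than that of 99.5% of tested genes or more, where the median gene had 0.11. Among FA tumours it was between 0.38 and 0.48, larger than that of 82.7% to 88.5% of genes, where the median gene had 0.175. Alas2 had an SD of 0.193 among FA tumours and 0.744 among PBS tumours. Whether the spread itself differed between FA and PBS was not tested.

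Leaving out single tumours moved the differences widely. Without PBS replicate 3 they were 1.45 ± 0.37 for Hba-a1, 1.35 ± 0.26 for Hba-a2, 1.35 ± 0.26 for Hbb-bs, 1.26 ± 0.27 for Hbb-bt and 0.40 ± 0.22 for Alas2. The unadjusted p of limma was then between 0.00244 and 0.0084 for the globins, and all adjusted p-values were 1.0. Without PBS replicate 1, in contrast, the differences were -0.10, -0.06, -0.09, -0.14 and -0.27 in the same order of genes. Without FA replicate 3 they were 0.32, 0.24, 0.28, 0.23 and -0.095 in that order. Weighting the tumours by how closely they followed the fit across genes gave 0.068, -0.020, -0.021, -0.043 and -0.25 in the same order of genes. Neither direction passed the adjusted threshold with or without any 1 tumour.

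**Figure D2:**
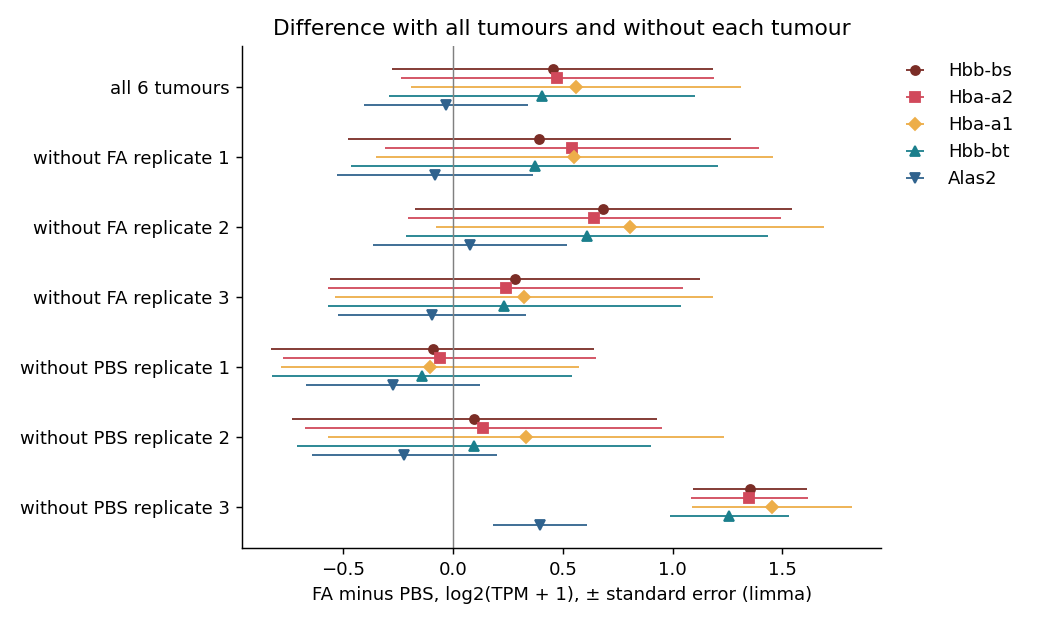
Difference FA minus PBS in log2(TPM + 1) with its standard error from limma, for the adult globin genes and Alas2, with all 6 tumours and without each tumour in turn. Globin differences lie between 0.40 and 0.56 with all tumours, between 1.26 and 1.45 without PBS replicate 3 and below 0 without PBS replicate 1.

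While the total varied, the proportions between globin chains held nearly constant. The ratio of summed alpha to summed beta globin TPM was 0.941, 1.13 and 1.18 in FA replicates 1, 2 and 3 and 0.989, 1.12 and 1.01 in PBS replicates 1, 2 and 3. The means were 1.08 ± 0.126 over FA and 1.04 ± 0.0673 over PBS tumours (SD, n = 3 each) and differed by less than the SD of either group. Highest over lowest, this ratio spanned 1.25 times, against 7.77 times for the sum. The ratio of Hbb-bs to Hbb-bt lay between 7.496 and 7.90 in FA tumours and between 7.35 and 8.34 in PBS tumours. Hba-a2 was 1.67 to 2.08 times Hba-a1 in FA tumours and 1.70 to 2.45 times in PBS tumours. These 2 ratios rest on the uncertain split between copies.

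The order of levels was the same in all 6 tumours, with Hbb-bs highest, then Hba-a2, Hba-a1, Hbb-bt, Alas2 and Slc4a1. Across tumours, the means of the neighbours Hbb-bs and Hba-a2 were closer than their SD, with Hba-a2 at 88.5 ± 27.3 TPM over FA tumours and 92.0 ± 102 TPM over PBS tumours. That SD is between tumours and does not measure the gap within a tumour, where Hbb-bs was higher in all 6. Hba-a1, at 48.0 ± 16.0 TPM over FA tumours and 47.8 ± 53.5 TPM over PBS tumours, overlapped with Hba-a2 across PBS tumours. Alas2 stood at 0.450, 0.386 and 0.353 TPM per 100 TPM of adult globin in FA replicates 1, 2 and 3, against 0.590, 0.514 and 0.433 in PBS replicates 1, 2 and 3. PBS replicate 3, the tumour of most globin, thus fell between FA replicates 1 and 2 in this measure.

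**Figure D3:**
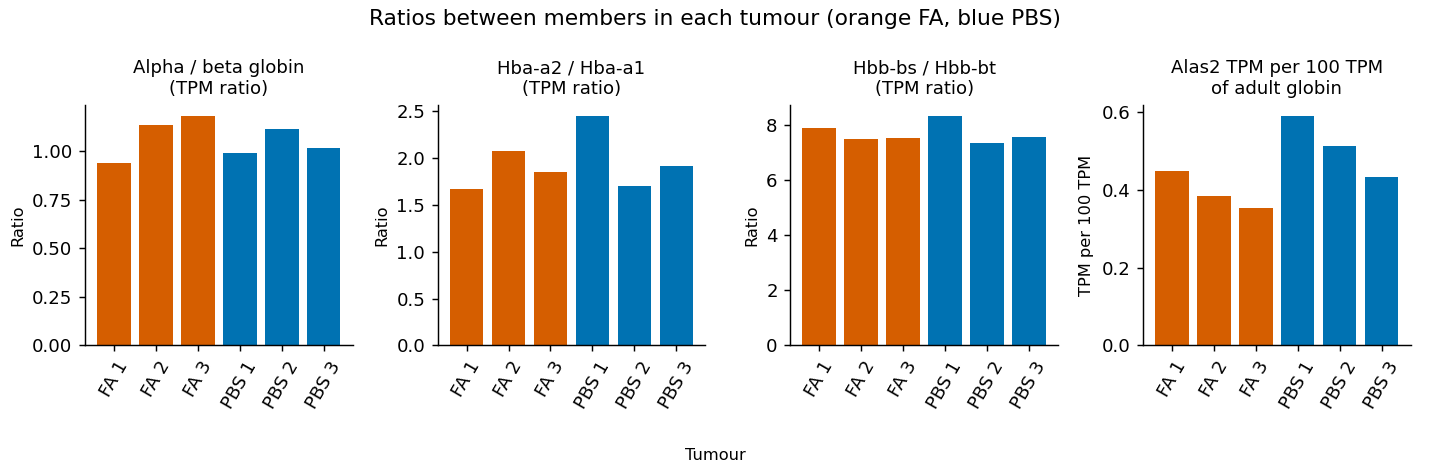
Ratios between members in each tumour, with FA tumours in orange left of PBS tumours in blue; bars are single libraries and start at 0. The alpha to beta ratio lies between 0.941 and 1.18 in FA tumours and between 0.989 and 1.12 in PBS tumours, and Alas2 per 100 TPM of adult globin between 0.353 and 0.450 in FA and between 0.433 and 0.590 in PBS tumours.

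Rows of residual ribosomal and other structural RNA, examined after seeing the values, were also highest in PBS replicate 3, and the 3 rows given here were next highest in FA replicate 3. The 18S ribosomal RNA row Rn18s-rs5 was at 798, 644 and 2478 TPM in FA replicates 1, 2 and 3 and at 666, 820 and 5288 TPM in PBS replicates 1, 2 and 3. The 5_8S_rRNA row was at 58.3, 56.9 and 303 TPM in FA tumours, against 43.9, 55.75 and 933 TPM in PBS tumours. The signal recognition particle RNA Rn7s1 followed them, with 37.2 TPM in FA replicate 3, 114 TPM in PBS replicate 3 and 4.66 to 6.96 TPM in the other tumours. Among those other tumours the rows differed in whether they followed globin. The 18S row had a mean of 721 TPM in FA replicates 1 and 2 against 742.5 TPM in PBS replicates 1 and 2. The ratio of such means was 1.16 for 5_8S_rRNA and 1.06 for mt-Rnr2, both of which took the globin order, and 1.197 for Rn7s1, which did not. Globin in the same tumours was 2.28 times as high in FA, at 223 against 98.1 TPM. With the 18S row as a covariate, an alternative added after seeing the data, the differences were 0.88 for Hba-a1, 0.78 for Hba-a2, 0.76 for Hbb-bs, 0.695 for Hbb-bt and 0.11 for Alas2. The unadjusted p of limma was then 0.0185 to 0.0574 for the globins, under 0.05 for 3 of them, and the adjusted p was 0.9945. The 18S row was chosen with its peak in PBS replicate 3, shared with globin, already known. These p-values are therefore no independent support for a difference. The part of library composition in the globin differences was not tested.

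Blood vessel genes took another order. Summed over 14 endothelial genes, the level was 156, 208 and 614 TPM in FA replicates 1, 2 and 3 and 275, 183 and 207 TPM in PBS replicates 1, 2 and 3. FA replicate 3 was highest for 13 of the 14, among them Pecam1, an adhesion molecule of endothelial junctions, at 69.3 TPM there and 17.8 to 32.1 TPM in the other tumours. Globin per unit of endothelial TPM was 1.65, 0.911 and 0.553 in FA replicates 1, 2 and 3 and 0.296, 0.626 and 3.05 in PBS replicates 1, 2 and 3. PBS replicate 3 had the most globin for its endothelial transcripts, and FA replicate 3, richest in endothelial transcripts, stood below the other FA tumours. Of the 14 genes, all had a higher mean log2 value in FA and 0 passed the test, with a median difference of 0.28 against 0.002 over all tested genes, and of -0.23 without FA replicate 3.

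Genes of other circulating cells did not share the globin order. Of 12 platelet and megakaryocyte genes, 3 passed the filter and 0 were called, with a median log2 difference of 0.17. Pf4, a chemokine of platelet granules that tissue macrophages can also express, was at 68.8, 43.8 and 123 TPM in FA replicates 1, 2 and 3 and at 78.4, 39.5 and 83.9 TPM in PBS replicates 1, 2 and 3. Ppbp, another platelet chemokine, was at 1.69, 1.76 and 3.88 TPM in FA tumours, against 1.73, 0.66 and 2.24 TPM in PBS tumours. Itga2b, the other tested gene of this list, went the other way, with a log2 difference of -0.17. It was at 1.98, 2.48 and 2.98 TPM in FA tumours, against 2.88, 3.68 and 2.23 TPM in PBS tumours. Of 12 neutrophil genes, 4 passed the filter and 0 were called, and their sum was 21.9, 34.0 and 48.9 TPM in FA replicates 1, 2 and 3 against 26.4, 26.5 and 23.6 TPM in PBS replicates 1, 2 and 3. PBS replicate 3, highest in globin, was the lowest PBS tumour in this sum, but its place differed between genes. Ltf, a large part of the sum, was at 2.15, 17.35 and 7.79 TPM in FA tumours, against 8.41, 9.88 and 5.97 TPM in PBS tumours. S100a8 was at 6.59, 5.22 and 14.78 TPM in FA tumours, against 5.65, 5.31 and 6.16 TPM in PBS tumours.

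**Figure D4:**
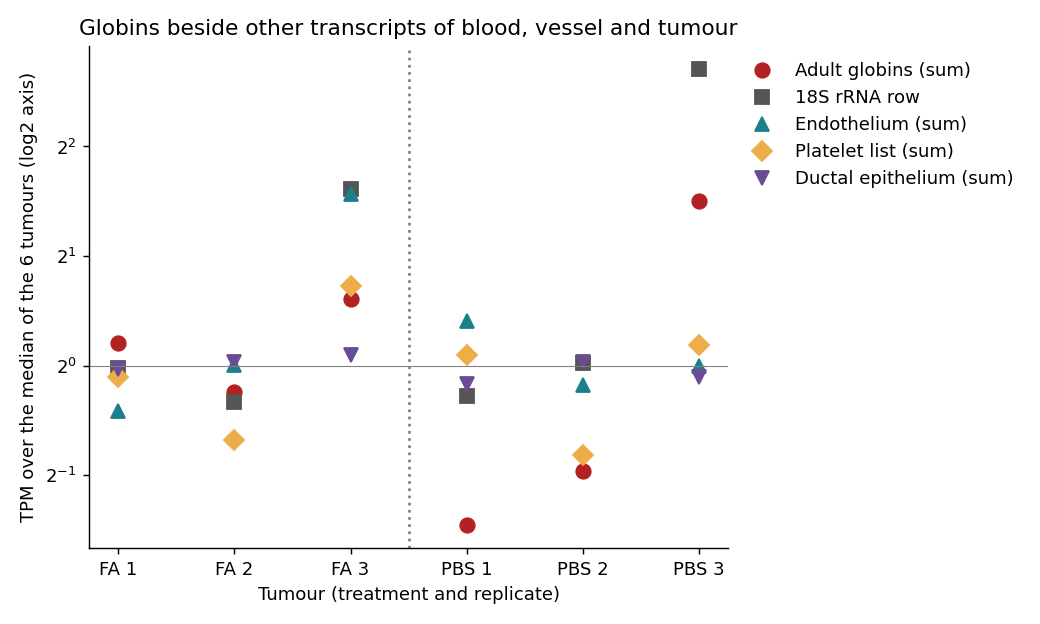
Level of the summed adult globins, the 18S ribosomal RNA row and the summed endothelial, platelet and ductal epithelial genes in each tumour, as TPM over the median of the 6 tumours (log2 axis), FA left of PBS; points are single libraries. Globin and 18S RNA peak in PBS replicate 3, at 632 and 5288 TPM, while endothelial genes peak in FA replicate 3, at 614 TPM.

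Several genes of red cells and their precursors, named after their values were seen, were below the filter of 1 TPM. Of 13 other globin rows, 8 were listed at 0 in every tumour, among them the embryonic globins Hba-x, Hbb-bh1 and Hbb-y. These are genes of the embryo, so their values do not measure red cell precursors after birth. Neither Kel, a red cell surface protein, nor Car1, an abundant carbonic anhydrase of red cells, was above 0 in any tumour. Gata1, the main erythroid transcription factor gene, was at 0.0567 ± 0.0473 TPM over FA tumours and 0.0133 ± 0.0231 TPM over PBS tumours. Klf1, an activator of beta-globin, averaged 0.22 ± 0.121 TPM over FA tumours and 0.297 ± 0.108 TPM over PBS tumours. Only 1 of 7 erythroid transcription factor genes passed the filter, namely Zfpm1, a GATA1 partner, at 108 ± 24.6 TPM over FA tumours and 122 ± 17.6 TPM over PBS tumours, a difference of -0.18 ± 0.18 (adjusted p = 1.0, limma).

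Heme synthesis genes other than Alas2, most of which all cells use, gave no call. All 11 in the list were tested and 0 passed, 5 with a higher and 6 with a lower mean, with a median log2 difference of -0.01. Alas1, the housekeeping counterpart of Alas2, was at 45.9 ± 7.17 TPM over FA tumours and 43.1 ± 1.02 TPM over PBS tumours. Fech, whose product inserts iron into protoporphyrin to make heme, was at 43.8 ± 6.72 TPM over FA tumours and 45.7 ± 1.92 TPM over PBS tumours. Slc25a37, the mitochondrial iron importer mitoferrin 1, had the one unadjusted p under 0.05 of the list, 0.041 by limma, at 26.05 ± 2.24 TPM over FA tumours and 22.1 ± 0.723 TPM over PBS tumours, with an adjusted p of 1.0. Highest over lowest, Alas1 spanned 1.37 times over the 6 tumours, against 5.71 times for Alas2.

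Membrane and maturation genes that red cells share with other tissues likewise had 0 calls, with 8 of 16 and 9 of 14 passing the filter and median differences of 0.04 and -0.06. The water channel gene Aqp1, also made by endothelium, was at 108 ± 18.5 TPM over FA tumours and 112 ± 17.9 TPM over PBS tumours. Gypc, which encodes glycophorin C, was at 3.603 ± 2.28 TPM over FA tumours and 2.56 ± 0.881 TPM over PBS tumours. Bpgm, whose product makes the haemoglobin regulator bisphosphoglycerate, was at 108 ± 32.45 TPM over FA tumours and 135 ± 7.44 TPM over PBS tumours, a difference of -0.37 ± 0.22 (unadjusted p = 0.146, limma). The erythropoietin receptor gene Epor was at 6.03 ± 1.98 TPM over FA tumours and 7.003 ± 0.445 TPM over PBS tumours. PBS replicate 3 was highest for 0 of the 8 membrane genes tested and 1 of the 9 maturation genes. It was highest for 1267 of all 15023 tested genes, so these counts do not set the lists apart from genes in general.

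Genes that clear haemoglobin and heme gave no call either. Of 11, 10 passed the filter and 0 were called, with a median difference of 0.03. PBS replicate 3 was highest for 0 of the 10, against 1267 of all 15023 tested genes, so this count says little in so short a list. Hp, which encodes the plasma haemoglobin scavenger haptoglobin, was at 12.7, 42.25 and 125 TPM in FA replicates 1, 2 and 3 and at 22.0, 34.55 and 13.85 TPM in PBS replicates 1, 2 and 3. Its receptor gene Cd163, a macrophage marker, was at 5.93, 3.86 and 9.73 TPM in FA tumours, against 4.12, 5.52 and 2.70 TPM in PBS tumours. Both had their highest value in FA replicate 3, as did 6 of the 10 tested genes in all, and PBS replicate 3 was the lowest of all 6 tumours for Cd163. Hpx and Slc40a1 of the same list were instead lowest in FA replicate 3, Slc40a1 at 17.4 TPM there. Hpx was at 2.77, 2.22 and 0.82 TPM in FA tumours, against 2.86, 3.16 and 2.69 TPM in PBS tumours. Heme oxygenase gene Hmox1 was at 76.5 ± 42.5 TPM over FA tumours and 69.1 ± 17.25 TPM over PBS tumours, and the ferritin gene Fth1 at 1919 ± 126 TPM over FA tumours and 2054 ± 66.1 TPM over PBS tumours.

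**Figure D5:**
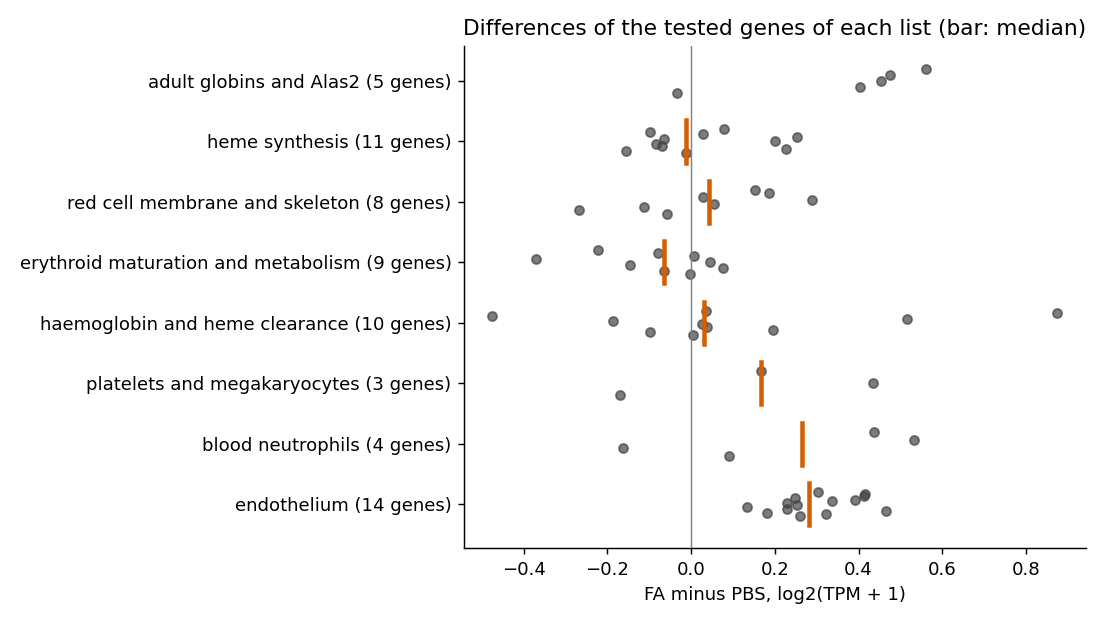
Difference FA minus PBS in log2(TPM + 1) of each tested gene (points) of the adult globins with Alas2 and of 7 other lists, with the list median as an orange bar for the other lists. The globins lie between 0.40 and 0.56 and Alas2 at -0.03, while the medians are -0.01 for heme synthesis, 0.04 for the red cell membrane and 0.28 for endothelium.

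The genes most like the globins in pattern were ranked by the mean absolute difference between centred log2(TPM + 1) values over the 6 tumours, which was 0.825 for the median gene. The adult globins themselves were at 0.0452 to 0.0897 from their common profile, and Alas2 at 0.47. Genes without a symbol and gene models (Gm or Rik symbols) were left out before the 8 nearest outside the members were taken. These 8 ranked 6 to 26.5 among all tested genes, members included, so some genes left out were nearer. Among the 8, mt-Co3, a mitochondrial messenger of cytochrome oxidase, was the closest, at 0.367. It was at 233, 154 and 157 TPM in FA replicates 1, 2 and 3 and at 41.3, 60.8 and 282 TPM in PBS replicates 1, 2 and 3. Next were Snord8, a 7SK row and Rny3, all structural RNA genes, at 0.455 to 0.489, then Tagln, a smooth muscle actin-binding protein gene, at 0.49. Cbx3-ps7, Cpxm2 and Rnu2-10 followed, at 0.497 to 0.545. None of the 8 came from the erythroid lists.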

How the data were processed

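Libraries were stranded and made from total RNA of high integrity, per the labels' protocols. The authors deposited TPM per Ensembl gene for the 6 tumours, and per the submitters' processing notes FastQC, STAR, featureCounts and RSEM were used. For their versions, the build and the gene models: not given in the sources used here. Each column name equals the description of 1 sample.

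The log2(TPM + 1) values of 15023 genes averaging 1 TPM or more were compared between FA and PBS without a covariate, using limma 3.58.1 (R 4.3.3), with a mean-dependent prior spread, two-sided p-values and Benjamini-Hochberg adjustment at 0.05. The fit was tested on simulated data in which every gene had the same spread, that of the median gene. That test does not cover genes as variable as the globins. Sums, ratios and orders are descriptions without a test. Genes named are the members, some of the 4 genes of highest mean in each list and some erythroid list genes averaging 1 TPM or more. The 8 genes nearest in pattern, with gene models and genes without a symbol left out, are named too. Which of the eligible list genes are named was chosen after their values were seen. Cd163, Hpx, Slc40a1, Kel, Car1, Gata1, Klf1, Hba-x, Hbb-bh1 and Hbb-y of the lists were named after their values were seen. So were genes that share the globin order and the ribosomal and structural RNA rows. Members and lists were chosen with earlier results of these data known. Alternatives changed the pseudocount, filter, scaling, weights, block, covariate and tumours used. TPM holds no depth, so no counting interval is given.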

Additional observations from a re-analysis of the deposited data

How the results depend on the processing

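By limma, 0 genes were called higher and 0 lower in FA, also at an adjusted p under 0.1, against 192 at an unadjusted p under 0.05. Without a filter (genes above 0 in at least 1 tumour) 2 were called higher, Gm24045 and Gm22728, which are no members. With 1 tumour left out, the counts were 0 to 0 higher and 0 to 1 lower, the 1 being Snord14d without FA replicate 3. No member was called in any alternative, and their smallest adjusted p was 0.885 to 0.971. Leaving out 1 tumour gave differences from -0.10 to 1.45 for Hba-a1, -0.061 to 1.35 for Hba-a2, -0.091 to 1.35 for Hbb-bs, -0.14 to 1.26 for Hbb-bt and -0.27 to 0.40 for Alas2, each lowest without PBS replicate 1 and highest without PBS replicate 3. Array weights gave 0.068 for Hba-a1, -0.25 for Alas2, -0.020 for Hba-a2, -0.021 for Hbb-bs and -0.043 for Hbb-bt, and the cause was not tested. Alas2 was at 0.086 with a pseudocount of 0.1 and could not be fitted under the filter of 5 TPM. The FA over PBS ratio of summed globin was 2.24 between medians and 0.702 to 2.67 without 1 tumour, and that of the alpha to beta ratio was 0.997 to 1.11 without 1 tumour. The ribosomal RNA alternatives were chosen after seeing the data, in which the 18S row peaked in PBS replicate 3 as globin did. Taking ribosomal RNA out of the total left Hba-a1 at 0.56, and the 18S row as a covariate gave 0.695 to 0.88 for the globins, with unadjusted p of 0.0185 to 0.0574 by limma, and 0.11 for Alas2, with 0 calls. Same-numbered tumours did not deviate together (correlations of -0.208, 0.053 and -0.022), and the replicate block gave 0 and 0 calls and a difference of 0.56 ± 0.51 for Hba-a1. What depth limits cannot be told from TPM.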

Other observations

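The mitochondrial messenger mt-Co3, chosen after its values were seen, differed from most other mitochondrial messengers in how far it varied. Its highest tumour held 6.82 times its lowest, whereas mt-Co1 spanned 1.09 times, mt-Nd1 1.16 times and mt-Cytb 1.35 times. Of the messengers measured, mt-Co2 was also wide, at 4.73 times. Reads of mitochondrial genes can be shared with copies in the nuclear genome, and how they were assigned is not given in the sources used here.

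Muscle and tissue globins did not follow the blood globins. Myoglobin (Mb), the oxygen store of muscle, was at 0, 4.10 and 18 TPM in FA replicates 1, 2 and 3 and at 4.82, 0 and 3.57 TPM in PBS replicates 1, 2 and 3. Cytoglobin (Cygb), a globin of fibroblast-like cells, was at 24.5 ± 7.80 TPM over FA tumours and 19.9 ± 1.51 TPM over PBS tumours (SD, n = 3 each), a log2 difference of 0.24 ± 0.22 with an adjusted p of 1.0 by limma.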
